A study of Gossypium with 24 samples.

Results

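The genes described here are the 100 that held the steadiest share of the RNA counts in cotton seedling roots across 8 groups of libraries. They were chosen from 60633 gene IDs. Counts were scaled to a library total of 1000000 (CPM), averaged over the 3 libraries of each group, and 4160 genes with a mean of at least 20 CPM in all 8 groups were ranked by the ratio of their highest to their lowest group mean. The 100 lowest ratios ran from 1.12 to 1.40. The ratio was the basis of the choice, so all group means below are a description of what was chosen, and no test of the same libraries bears on it independently.

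The groups crossed 2 Gossypium hirsutum varieties, called tolerant (9001, or ZM9001) and sensitive to flooding (4847, or Z4847) in the study's design, with 2 treatments and 2 sampling times. Young seedlings spent 96 h in darkness, either not flooded (control) or flooded (waterlogged). Roots were sampled when the 96 h ended (0 h) or once another 24 h had passed with the light back on and the flooding ended (24 h). Darkness for 96 h was thus common to every group, including all controls, and no group was sampled before it or kept dark for the last 24 h. The material was whole root, so a gene's level reflects both the mix of cells and the RNA per cell, and fewer cells of a type cannot be told apart from less RNA per cell. The files pair no gene name with an ID and no annotation came with them, so root markers could not be checked and the members are given by ID alone.

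Genes with steady transcript levels are used as internal references: in quantitative PCR a target is read relative to reference genes that are taken not to respond to the treatment. Flooding deprives roots of oxygen, moves energy metabolism from respiration towards fermentation and changes a large part of the root transcriptome, which makes such references hard to find. Cotton is an allotetraploid whose A and D chromosome sets carry near-identical copies of many genes, so a count is uncertain wherever a read fits either copy. A CPM value is a share of a library, not an amount per cell. A gene with a constant share is constant in amount only where the total RNA of all genes is constant too.

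Library totals ran from 36096441 to 39945111 counts in 7 groups and from 21423479 to 22442564 in waterlogged 4847 at 24 h. All 24 pairs of replicate libraries differed by more than sampling noise, with a chi-square per degree of freedom of 2.79 to 6.06, so none was treated as a repeated deposit. The labels do not say whether replicates were separate plants, and p-values therefore reflect just the spread among these libraries, which may be technical.

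Steadiness of this degree was uncommon among well-expressed root genes. The median eligible gene had a ratio of 2.89 between its highest and lowest group mean, 896 of the 4160 eligible genes (21.5%) stayed under 2, and 908 (21.8%) reached 5 or more. The median ratio of the 100 members was 1.34. The last members by rank, Ghir_D07G002740 and Ghir_A08G020580, both had a ratio of 1.40, and so did the first genes left out, Ghir_A08G023550 and Ghir_A08G004460, so the boundary of the list separates genes that are alike on this measure. Between single libraries, the highest value of a member exceeded its lowest by 1.23 to 1.68 times, with a median of 1.48, against a median of 3.15 for the eligible genes.

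**Figure D1:**
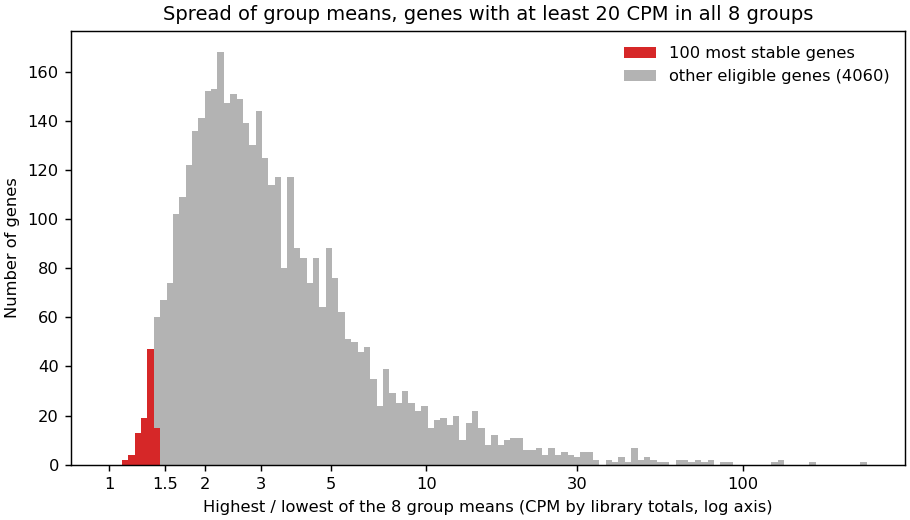
Number of eligible genes by the ratio of the highest to the lowest of their 8 group means, on a log axis, with the 100 most stable genes in red and the others in grey, stacked. The members form the lower edge of a single broad distribution whose median is 2.89.

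Ghir_A02G001570 was the steadiest gene, with a ratio of 1.12 and a mean of 113 CPM. In 9001 its libraries read 112, 121 and 115 CPM in the 0 h control, 114, 117 and 121 in waterlogged roots at 0 h, 104, 101.3 and 109 in the 24 h control and 116, 120 and 113 in waterlogged roots at 24 h. In 4847 they read 113, 114 and 124, then 115, 117 and 119, then 115, 100.5 and 111, and 106, 104 and 107 CPM in the same order of groups. The groups overlapped in each variety at 0 h, and the lowest single values lay in the 24 h control libraries of both varieties. Its group means ran from 105 ± 4.02 CPM in the 9001 control at 24 h to 117 ± 3.55 CPM in waterlogged 9001 at 0 h (SD, n = 3).

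Ghir_D08G025240 came next, at a lower level. Its libraries in 9001 read 32.8, 32.4 and 28.8 CPM in the 0 h control, 33.7, 27.7 and 29.9 under waterlogging at 0 h, 27.5, 30.3 and 29.1 in the 24 h control, and 29.8, 28.8 and 27.5 after waterlogging at 24 h. In 4847 they read 30.8, 34.1 and 31.3, then 30.7, 29.1 and 30.8, then 29.4, 28.6 and 32.1, and 27.1, 26.6 and 31.1 CPM. Waterlogged and control libraries of the same variety and time overlapped, except in 4847 at 0 h, where the highest waterlogged and the lowest control library both rounded to 30.8 CPM without overlapping. With library totals as the only scaling it was the 1 member of 100 called in none of the 12 comparisons of groups described below (edgeR adjusted p from 0.156 to 0.942), beside 294 of 50638 tested genes (0.581%), and none of its comparisons had an unadjusted p under 0.05 by edgeR or by limma on log2(FPKM + 1).

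Ghir_D03G011380, ranked next, varied little in 4847 and was lowest in the 9001 control at 0 h. Its libraries in 9001 read 34.5, 36.5 and 35.5 CPM in the 0 h control, 37.5, 39.0 and 36.7 under waterlogging at 0 h, 38.5, 38.4 and 41.1 in the 24 h control, and 39.7, 40.4 and 42.6 after waterlogging at 24 h. In that variety the 0 h control lay wholly below the other groups. In 4847 all 12 libraries lay between 35.9 and 41.1 CPM and the groups overlapped.

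The other 2 of the 5 steadiest genes differed in how well their replicates matched. Ghir_A01G012610 had group means from 34.5 ± 3.72 to 40.3 ± 6.07 CPM (SD, n = 3), and single libraries from 30.4 to 45.1 CPM, a ratio of 1.48 that is close to the median over the members. Ghir_D12G012660, among the least abundant members, had group means from 20.9 ± 0.546 CPM in the 9001 control at 24 h to 24.5 ± 0.588 CPM in waterlogged 4847 at 0 h, and its lowest library, at 19.1 CPM, lay under the 20 CPM that the choice asked of group means.

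**Figure D2:**
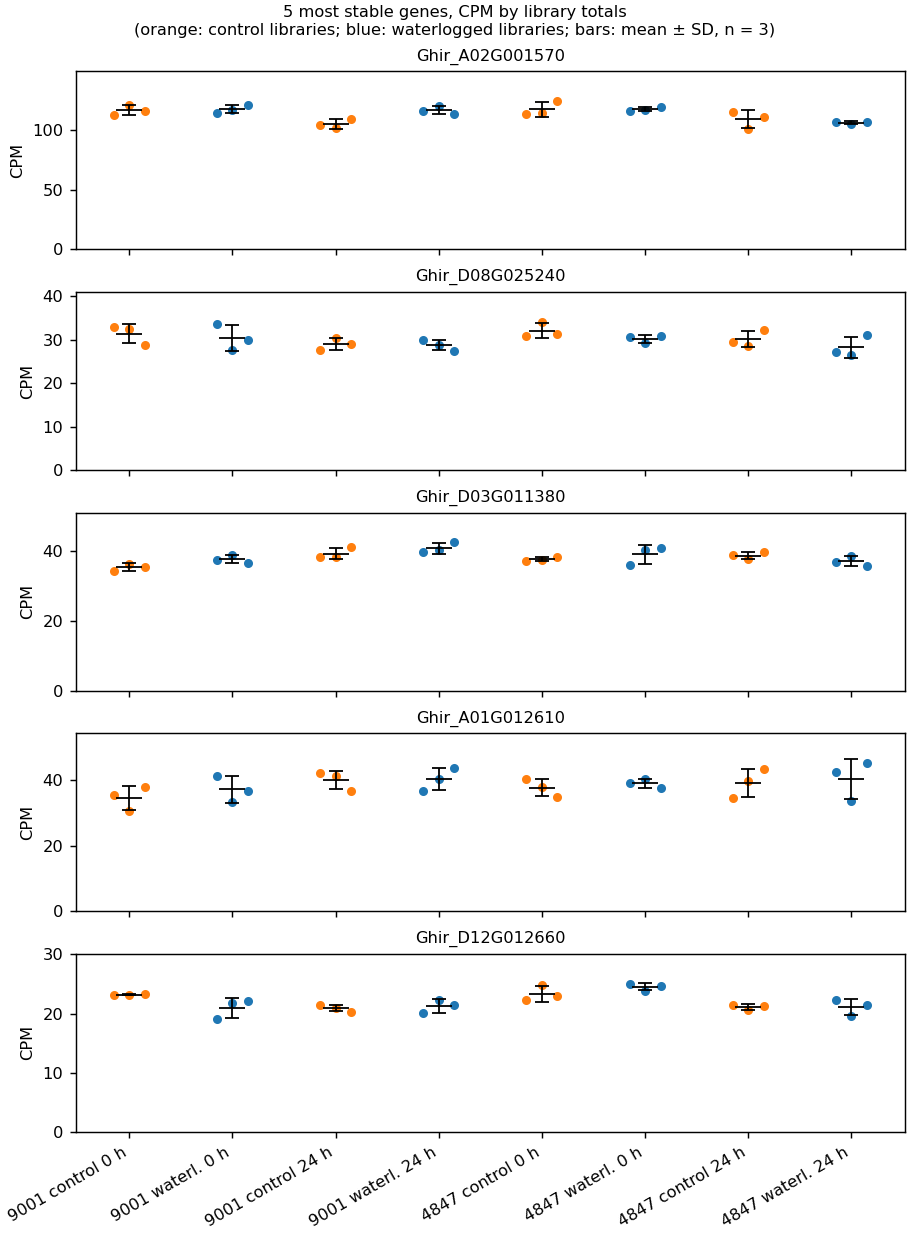
CPM by library totals of the 5 genes with the lowest ratio in all 24 libraries, control in orange and waterlogged in blue, with bars for the group mean ± SD (n = 3). Group means of each gene differ by a ratio of 1.12 to 1.17, and single libraries of Ghir_A01G012610 run from 30.4 to 45.1 CPM.

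The most abundant member, Ghir_A08G015480, was steady but not flat. In 9001 it read 156, 150 and 162 CPM in the 0 h control, 161, 169 and 178 under waterlogging at 0 h, 161, 166 and 165 in the 24 h control, and 143, 139 and 137 after waterlogging at 24 h. The last group lay wholly below the other groups of its variety. In 4847 its group means ran from 144 ± 8.39 to 164 ± 5.21 CPM (SD, n = 3). The least abundant member, Ghir_A01G017450, averaged 22.0 CPM, with group means from 20.1 ± 0.644 CPM in waterlogged 9001 at 24 h to 24.9 ± 1.17 CPM in the 4847 control at 0 h.

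At the edge of the list the differences between groups were plain in single libraries. Ghir_A08G020580, ranked 100, read 53.7, 53.5 and 55.4 CPM in waterlogged 4847 at 0 h, above its other 21 libraries, and 37.8, 40.3 and 38.0 CPM in waterlogged 9001 at 24 h. Ghir_D07G002740, ranked 99, ran from 23.2 ± 1.57 CPM in waterlogged 9001 at 24 h to 32.5 ± 2.43 CPM in the 4847 control at 0 h. The first genes outside were no different in kind: Ghir_A08G023550 ran from 27.2 ± 2.59 to 38.1 ± 3.21 CPM and Ghir_A08G004460 from 31.0 ± 2.59 to 43.5 ± 1.82 CPM (SD, n = 3).

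The members were of middle abundance. Their mean over the 8 groups ran from 22.0 to 156 CPM with a median of 41.0 CPM, against 66.2 CPM for the eligible genes, whose highest reached 3106 CPM. Of the 134 eligible genes with a mean of 20 to 30 CPM, 26 (19.4%) were members, against 13 of the 2352 genes at 60 CPM or more (0.553%). A minimum of 20 CPM in every group leaves only steady genes among those with a mean close to it, so this tilt is partly set by the rule. Per kilobase of gene length, the members had 1.92 to 107 FPKM (fragments per kilobase, scaled to the library total) and a median of 14.4 FPKM, against 26.6 FPKM for the eligible genes. Their lengths ran from 971 to 11427 bases with a median of 2697 bases, close to the 2606.5 bases of the eligible genes.

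Members were spread over both chromosome sets and nearly all chromosomes. The A chromosomes held 47 and the D chromosomes 53, where 48.9% of eligible genes were on A chromosomes, and 24 of the 26 chromosome labels had at least 1 member. D08 had the most, with 11 of its 211 eligible genes, which is 11% of the members against 5.07% of the eligible genes. A03 followed with 8. The closest pair by ID number was Ghir_D08G024460 and Ghir_D08G024480. These counts were taken after the members were known and no test was made of them.

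The scatter between replicate libraries, which the choice did not use directly, was not unusually small in the members. The coefficient of variation (CV) over the 3 libraries of a group, taken as the median of the 8 groups, had a median of 4.31% over the members and 3.46% over the eligible genes, where counting error alone gives 2.56% and 2.18%. Among genes with a mean of 40 to 60 CPM the values were 3.89% for 38 members and 3.87% for the rest, and at 20 to 30 CPM they were 5.83% and 4.61%. The widest scatter was in waterlogged 4847 at 24 h, the group with the fewest counts, at a median CV of 6.30%, and the narrowest in the 4847 control at 24 h, at 3.15%. Single members ran from 1.63% for Ghir_A07G010450 and 1.72% for Ghir_A13G019340 to 9.59% for Ghir_A01G012610 and 9.84% for Ghir_A05G021610. Ghir_A05G021610 read 35.2, 27.3 and 29.2 CPM in the 4847 control at 0 h, while Ghir_A07G010450 read 41.4, 41.6 and 41.2 CPM in waterlogged 4847 at 0 h.

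The steadiness was also seen in replicate libraries left out of a choice. These belong to the same 8 groups and may be technical replicates. The reading below thus shows agreement among replicates, not steadiness under other conditions. When the list was chosen on 2 replicate numbers and read in the one left out, the median ratio of the highest to the lowest of the 8 left-out libraries was 1.38, 1.39 and 1.41 for replicates 1, 2 and 3. The same genes had medians of 1.34, 1.35 and 1.34 in the libraries that chose them, over means of 2 libraries. The eligible genes not chosen had medians of 2.99, 2.96 and 2.98 in the left-out libraries. All 100 genes of each list stayed under a ratio of 2 there, against 17.8% to 18.8% of the genes not chosen, and 78 to 85 stayed under 1.5, against 1.71% to 2.09%. Each of these lists held 81 to 85 of the 100 members, and 61 members were in all of them. The lists rest on 2 of the 3 libraries per group that chose the members, so much of this overlap was built in.

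The 100 genes together held a nearly constant share of the counts, which the choice largely fixed in advance. They took 0.436% ± 0.000285 in the 9001 control, 0.424% ± 0.00631 in waterlogged 9001, 0.447% ± 0.000388 in the 4847 control and 0.475% ± 0.00400 in waterlogged 4847 at 0 h (SD, n = 3). At 24 h the shares were 0.450% ± 0.00569, 0.439% ± 0.000911, 0.455% ± 0.00235 and 0.439% ± 0.00300 in the same order. At 0 h the waterlogged libraries thus lay below control in 9001 and above control in 4847. What remained of differences between groups was shared out unevenly: 30 members had their highest group mean in waterlogged 4847 at 0 h and 2 their lowest, while waterlogged 9001 at 0 h was the highest group for 5 and the lowest for 22. Eligible genes were uneven in the same direction: the same groups were highest for 23.5% and 12.7% of them and lowest for 7.55% and 25.0%.

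The list depended wholly on the scaling. TMM factors, which set the bulk of the genes that 2 libraries share to no change, averaged 0.584 ± 0.00930 in waterlogged 9001 and 0.654 ± 0.0111 in waterlogged 4847 at 0 h, 1.06 ± 0.00689 and 1.05 ± 0.00195 in their controls, and 1.47 ± 0.00731 and 1.47 ± 0.0126 in the 24 h controls (SD, n = 3). Dividing by them turned the flat profile of the members into one that was highest in waterlogged roots at 0 h and low in the 24 h controls. The median member then had a ratio of 2.54 between its highest and lowest group mean (1.86 to 3.29 over the members). The highest group was waterlogged 4847 at 0 h for 51 members and waterlogged 9001 at 0 h for the other 49, and the lowest was a 24 h control for 96, of which 58 were in 9001 and 38 in 4847.

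**Figure D3:**
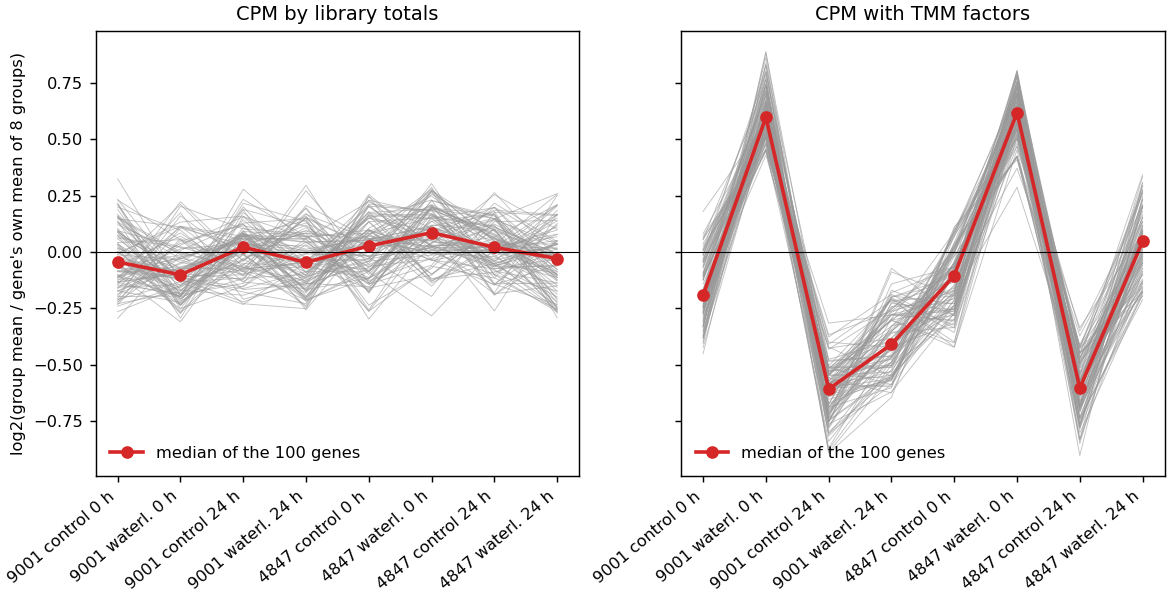
Group mean of each member relative to its own mean over the 8 groups (log2), as CPM by library totals on the left and with TMM factors on the right, with each member as a grey line and the median in red. The median stays between -0.10 and 0.09 by library totals and runs from -0.61 to 0.62 with TMM factors. The lines join groups only to show which points belong to 1 gene.

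The same rule applied to TMM-scaled CPM chose 100 genes from 4142 eligible genes, with a largest ratio of 1.46. None was a member, and none could be, since mean TMM factors differed between groups by up to 2.52 times. A gene with a ratio of at most 1.40 by library totals therefore stays above 1.46 after division by them. The lists by RLE factors (the median ratio of each library to a mean library) and by upper-quartile factors also shared no gene with the members. The spread of those factors fixed this likewise. On the TMM, RLE and upper-quartile scales 75 to 84 of the members met the minimum of 20 CPM. The TMM and RLE lists shared 70 of their 100 genes. By library totals the median gene of the TMM list had a ratio of 2.54, the same to 2 decimals as the members had by TMM. Both values largely restate the spread of the TMM factors, because each list was chosen on 1 scale and read on the other.

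The ratio between the 2 lists needs no scaling factor, because the factor of a library cancels. The geometric mean of the members was 1.03 ± 0.00401 times that of the TMM list in the 9001 control at 0 h and 1.81 ± 0.0142 times in waterlogged 9001 (SD, n = 3). In 4847 it was 1.04 ± 0.00520 and 1.80 ± 0.00947 times. At 24 h it was 0.791 ± 0.00540 in the control and 0.911 ± 0.00472 after waterlogging in 9001, and 0.790 ± 0.00180 and 1.14 ± 0.00634 in 4847. The 2 lists thus differed in their course by up to 2.29 times under any scaling. The choice built this in. The members were chosen to be level by library totals and the TMM list to be level after division by TMM factors. Their ratio therefore largely follows the inverse of the factors, whose group means differed by up to 2.52 times. Both lists were chosen on these same libraries, so the contrast between them is only a description. Which list was closer to a constant amount per cell was not tested, since that needs a measure of total RNA that is not used here.

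**Figure D4:**
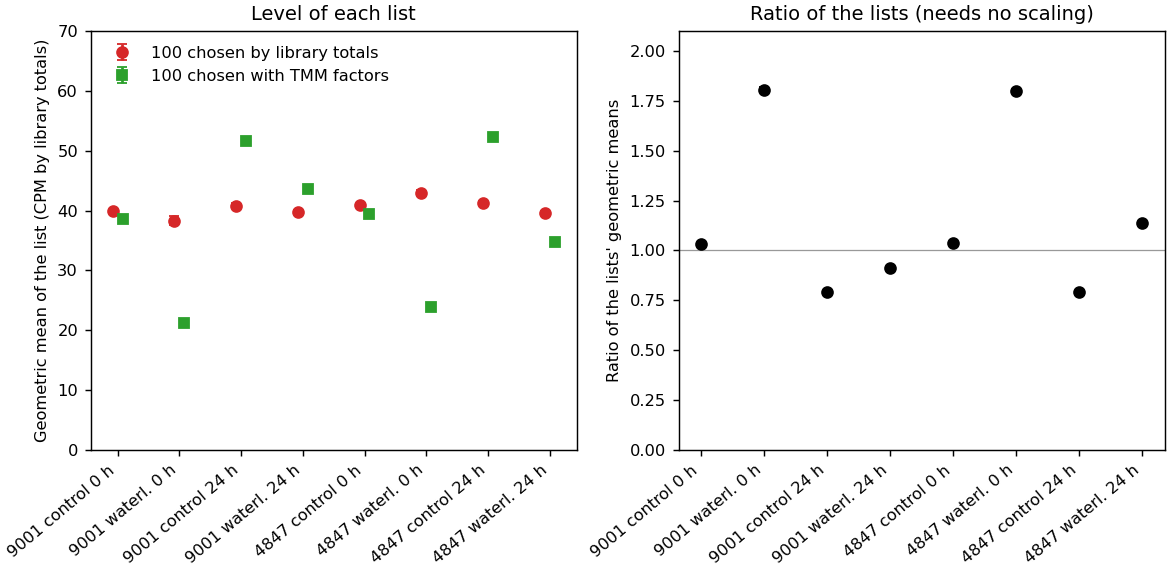
Geometric mean CPM by library totals of the 100 members (red circles) and of the 100 genes chosen with TMM factors (green squares) on the left, and the ratio of the former to the latter on the right, by group, with bars for the SD (n = 3, mostly smaller than the symbols). The members stay between 38.3 and 43.0 CPM, the other list falls to 21.2 CPM in waterlogged 9001 at 0 h, and the ratio runs from 0.790 to 1.81.

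The 12 comparisons of groups that differ in 1 factor were fitted with edgeR over the 50638 genes that passed its filter on low counts, which all 100 members passed. A gene was called at an adjusted p under 0.05. The fit with TMM factors and the fit with library totals alone answer different questions about these genes, a change relative to the bulk of genes and a change in share, and both are given. The median log2 fold change of all tested genes differed between the fits by more than 0.1 in most comparisons: at 0 h under waterlogging it was -0.13 with TMM and -0.99 with library totals in 9001, and -0.06 and -0.73 in 4847. The members were chosen on the group means compared, so nothing is read from the counts of calls beyond the values. The choice kept the members' shares nearly level. Their log2 fold changes with TMM therefore largely follow the TMM factors of the groups compared.

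Relative to the bulk of genes, the members were higher in waterlogged roots at 0 h, and in share they were divided. The rise with TMM was not particular to them: among the eligible genes the median member lay near the middle, as given below. At 0 h in 9001 all 100 were called higher with TMM, where 76.9% of tested genes were called, 36.1% higher and 40.7% lower. Their log2 fold changes had a median of 0.79. With library totals 54 were called in that comparison, 17 higher and 37 lower, beside 81.1% of tested genes, 22.5% higher and 58.6% lower, and the median was -0.06. In 4847 at 0 h all 100 were again called higher with TMM, where 74.9% of genes were called, 36.4% higher and 38.5% lower, and the median was 0.74. With library totals 61 were called, 43 higher and 18 lower, beside 77.8% of genes (23.9% higher, 53.9% lower), with a median of 0.06.

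At 24 h the members were higher than control relative to the bulk of genes in 4847, while in 9001 the difference was small. Mean TMM factors were 1.47 in both 24 h controls, 0.897 in waterlogged 4847 and 1.22 in waterlogged 9001 at 24 h. In 4847 all 100 were called higher with TMM (74.3% of genes called, 35.5% higher and 38.8% lower), with a median log2 fold change of 0.63. With library totals 52 were called, 15 higher and 37 lower, beside 81.7% of genes (19.1% higher, 62.5% lower), and the median was -0.08. In 9001, 68 were called with TMM, 67 higher and 1 lower, beside 59.8% of genes (31.8% higher, 28.1% lower), with a median of 0.23. RLE factors gave 51 higher and 3 lower there, and upper-quartile factors 37 higher and 5 lower. With library totals 44 were called in 9001, 15 higher and 29 lower, beside 63.9% of genes (22.4% higher, 41.5% lower), and the median was -0.04.

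Between the sampling times nearly all members fell relative to the bulk of genes with TMM, while with library totals they were divided. In controls, 95 were called with TMM in each variety, all lower at 24 h, beside 73.4% of genes in 9001 (38.5% higher, 35.0% lower). In 4847 75.8% of genes were called, 39.9% upwards and 35.9% downwards. In waterlogged roots all 100 were called lower in 9001 (79.5% of genes called, 43.7% higher and 35.8% lower), with a median log2 fold change of -1.02, and 97 were called lower in 4847 (72.5% called, 38.3% higher and 34.2% lower), with a median of -0.60. With library totals the 9001 control had 56, 38 higher and 18 lower, beside 75.9% of genes (54.1% higher, 21.8% lower), and the 4847 control had 55, 30 higher and 25 lower, beside 77.4% (54.3% higher, 23.1% lower). Waterlogged 9001 had 50, 34 higher and 16 lower, beside 84.3% (65.4% higher, 18.9% lower). Waterlogged 4847 had 63, 12 higher and 51 lower, beside 73.8% (48.3% higher, 25.5% lower).

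Between the varieties, calls in control roots were few among the members and among all tested genes. In controls at 0 h, 10 members were called with TMM, all lower in 9001, beside 14.8% of tested genes (7.47% higher, 7.34% lower). That count fell to 2 when any 1 of the 3 replicate numbers was left out. With library totals 7 were called, all lower in 9001, beside 14.9% of genes (8.15% higher, 6.78% lower). In controls at 24 h, 10 were called with TMM, 5 in each direction, beside 19.0% of genes (9.95% higher, 9.08% lower), and 3 without replicate 2 or without replicate 3. RLE factors gave 5 higher and 3 lower, and upper-quartile factors 6 and 3. With library totals 10 were called, again 5 in each direction, beside 19.2% (10.1% higher, 9.10% lower).

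In waterlogged roots the varieties differed more, and the scaling decided where. At 0 h, 28 members were called with TMM, 14 in each direction, beside 31.0% of genes (15.6% higher in 9001, 15.4% lower). Without replicate 2 the count was 18, and RLE factors gave 18 higher and 10 lower. With library totals 59 were called, 3 higher and 56 lower in 9001, beside 36.9% of genes (10.6% higher, 26.4% lower). At 24 h, 95 were called with TMM, all lower in 9001, beside 62.6% of genes (33.2% higher, 29.4% lower), with a median log2 fold change of -0.43. With library totals 49 were called there, 25 higher and 24 lower, beside 68.2% (52.7% higher, 15.5% lower), and the median was 0.01. The waterlogged 4847 libraries at 24 h are also those with the fewest counts, and the part of depth in these calls was not tested.

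**Figure D5:**
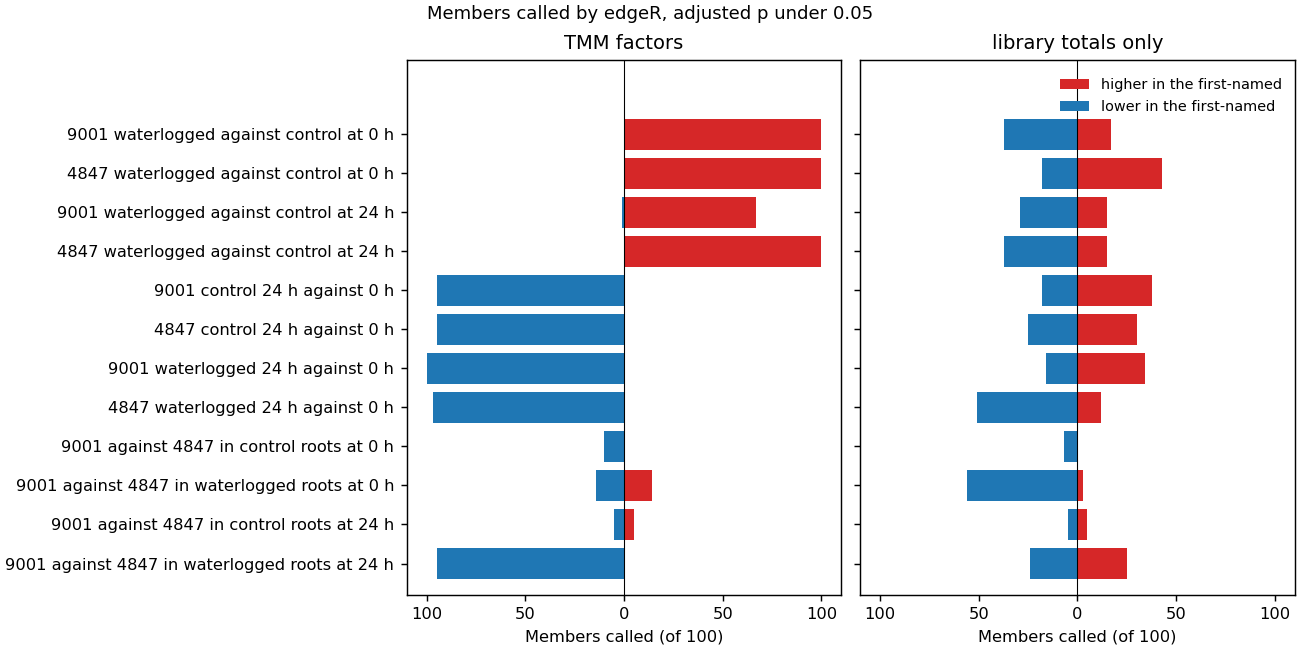
Number of the 100 members called by edgeR at an adjusted p under 0.05 in each of 12 comparisons, higher to the right in red and lower to the left in blue, with TMM factors and with library totals only. With TMM factors 67 to 100 members are higher in each comparison of waterlogged roots with control and 95 to 100 lower in each comparison of 24 h with 0 h, whereas with library totals both directions occur in all 8 of these comparisons.

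Whether the 2 varieties responded differently to waterlogging was tested with an interaction term. At 0 h, 12 members were called with TMM, 10 of them responding more in 9001 and 2 responding less, beside 19.4% of tested genes (9.98% higher, 9.46% lower). The count was 7 without replicate 1 and 6 without replicate 3, and RLE factors gave 16 higher and 1 lower. With library totals 28 were called, 1 higher and 27 lower, beside 24.9% of genes (6.19% higher, 18.7% lower). At 24 h, 81 were called with TMM, all with a lower log2 fold change in 9001, beside 53.8% of genes (28.8% higher, 25.0% lower). The median difference in log2 fold change was -0.40. With TMM this largely follows the factors, as in the comparisons above. With library totals 45 were called, 26 higher and 19 lower, beside 59.7% (46.0% higher, 13.7% lower), and the median was 0.04.

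In waterlogged 9001 against control at 0 h with TMM, 69.0% of tested genes had a lower log2 fold change than the median member, and in 4847 the share was 68.3%. In controls at 24 h against 0 h it was 33.1% in 9001 and 33.2% in 4847. Another scaling shifts all genes of a comparison by about the same amount, so these shares are nearly fixed whatever factors are used. Among the 4160 eligible genes alone the median member lay near the middle, with 53.9% of them lower in 9001 and 54.5% in 4847 under waterlogging at 0 h by TMM. By library totals the eligible genes had median log2 fold changes of -0.16 and -0.04 in these comparisons.

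Steady group means did not mean an absence of calls. With library totals the members were called in a median of 6 of the 12 comparisons, and the number ran from 0 for Ghir_D08G025240 to 10, beside a median of 8 over all tested genes. With TMM the median was 9 and the range 7 to 11, beside 7 over all tested genes. Ghir_A02G001570, the steadiest member, shows how far apart the scalings lie for 1 gene. Its log2 fold change under waterlogging at 0 h in 9001 was 0.87 with TMM (SE 0.0507). With library totals it was 0.013 (SE 0.0462). For Ghir_A08G015480, the most abundant member, the values were 0.98 with TMM (SE 0.0520) and 0.12 with library totals (SE 0.0478).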

How the data were processed

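RNA was extracted from roots and sequenced in 24 libraries, 3 in each of 8 groups assigned from the labels. The deposited counts are whole numbers for each gene ID and were not normalized. The authors' FPKM table equals these counts per column total and per gene length, and served for lengths, for levels per length and for limma. Its 1 malformed line was left out. No source used here gives the aligner, the counting tool or the use of strand, and per the submitters' processing notes the build is mm10, a mouse assembly, so the build behind the cotton IDs is not known. No coordinates or sequences are printed.

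The members and the lists were chosen with earlier results of these data known. CPM is the count scaled to a column total of 1000000. All 24 libraries entered 1 edgeR 4.0.16 fit (filterByExpr, TMM, estimateDisp, glmQLFit, glmQLFTest; R 4.3.3) with 1 coefficient for each group (16 residual degrees of freedom), and p-values were Benjamini-Hochberg adjusted over 50638 genes with a threshold of 0.05. An SE is the log2 fold change divided by the square root of F. The fits and the choice of genes were tested on simulated data. Alternatives were other scalings, filters, minimums and measures of stability, DESeq2 1.42.0, limma 3.58.1 on log2(FPKM + 1) and log2(FPKM + 0.1), a replicate block and leaving out each replicate. The ratio between the lists and the position among all genes were added after seeing the data. The named genes are the 5 lowest ratios, the 2 highest and 2 lowest means, the 2 largest and 2 smallest CVs, ranks 99 to 102, and, chosen after seeing their values, the closest pair of IDs. The submitters' labels give no names for IDs, so the reference-gene and root marker lists planned could not be applied. Depth was at least 21423479 counts, and counting CVs cover counting error only.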

Additional observations from a re-analysis of the deposited data

Results flagged for a closer look

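For all 12 named members the response to waterlogging at 24 h differed between the varieties with TMM factors, being lower in 9001 (edgeR). The members were chosen for level shares in these libraries. This shared direction therefore largely follows the TMM factors and is a description. The log2 differences were -0.25 for Ghir_A02G001570, -0.36 for Ghir_D08G025240, -0.32 for Ghir_D03G011380, -0.48 for Ghir_A01G012610, -0.42 for Ghir_D12G012660 and -0.69 for Ghir_A08G015480. They were -0.59 for Ghir_A01G017450, -0.38 for Ghir_A05G021610, -0.58 for Ghir_A07G010450, -0.24 for Ghir_A13G019340, -0.81 for Ghir_D07G002740 and -0.56 for Ghir_A08G020580. With library totals alone 4 of the 12 were called, 2 of them in the same direction, and 6 had the opposite sign, with values from -0.37 to 0.20. At 0 h Ghir_A01G017450 alone was called with TMM, with a response higher in 9001 by 0.35 (edgeR adjusted p = 0.0242). With library totals it was not called (0.17, edgeR adjusted p = 0.304). Ghir_A05G021610 (-0.46, edgeR adjusted p = 0.00636) and Ghir_A07G010450 (-0.24, edgeR adjusted p = 0.0321) were called instead. By library totals the log2 fold change of Ghir_A05G021610 at 0 h was -0.46 in 9001 and 0.0035 in 4847. That of Ghir_A07G010450 was -0.10 in 9001 and 0.14 in 4847.

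The members' share of counts at 0 h moved in opposite directions in the 2 varieties: every waterlogged 9001 library lay below the mean of its control, on average by a difference of -0.0121 percentage points, and every waterlogged 4847 library lay above, on average by 0.0283. This difference was not tested, since the members were chosen on these libraries.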

How the results depend on the processing

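The choice of the list was most sensitive to scaling. Of the 100 members, 0 remained with TMM, RLE or upper-quartile factors, which the spread of the factors between groups fixed in advance. With a minimum of 10 CPM 61 remained, with 50 CPM 16, with no minimum 40, and without waterlogged 4847 at 24 h 56. With the CV of the group means 80 remained, with the ratio over 24 libraries 78, and without 1 replicate 81 to 85. With FPKM all 100 had to remain, because it divides CPM by a fixed gene length and the minimum was kept in CPM. At 10 CPM or with no minimum all 100 were still eligible, and steadier genes under 20 CPM took the other places. At 50 CPM 16 were eligible.

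Counts of members called moved by over 1.5 times with library totals in 10 of the 12 comparisons and with limma in most. In the order waterlogged against control in 9001 and 4847 at 0 h and then at 24 h, controls and then waterlogged roots over time in 9001 and 4847, and 9001 against 4847 in control and waterlogged roots at 0 h and then at 24 h, library totals called 54, 61, 44, 52, 56, 55, 50, 63, 7, 59, 10 and 49 members, limma on log2(FPKM + 1) 49, 55, 44, 51, 47, 51, 48, 63, 2, 54, 8 and 46, and limma on log2(FPKM + 0.1) 45, 52, 38, 49, 44, 42, 47, 60, 1, 53, 5 and 43. For the difference in response library totals called 28 at 0 h and 45 at 24 h. Upper-quartile factors called 42 for 9001 at 24 h and 6 for the control varieties at 0 h. The cause was not tested. FPKM is itself scaled by library totals. Without 1 replicate the calls between varieties ran from 2 to 2 and 3 to 7 in controls at 0 h and 24 h and from 18 to 22 in waterlogged roots at 0 h, and for the difference in response at 0 h from 6 to 8. DESeq2, no low-count filter and fits to the compared libraries alone kept the counts of the 12 comparisons of groups within 1.5 times. Fits to the compared libraries alone were not run for the difference in response. Its counts with DESeq2 or with no low-count filter are not given here.

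Same-numbered libraries of different groups did not clearly deviate together: none of 84 pairs correlated over 0.1 (-0.09 to 0.09), and 9 of 24 libraries correlated best with their own number. No strong pairing by number was seen, and a weak one might not show this way. A replicate block left 68 members called for 9001 at 24 h and 7 for the control varieties at 0 h, and turned no value.

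Signs of named members turned with library totals, under waterlogging at 0 h in 9001 to -0.13 (Ghir_A01G017450), -0.46 (Ghir_A05G021610), -0.10 (Ghir_A07G010450), -0.12 (Ghir_A13G019340), -0.16 (Ghir_D07G002740), -0.041 (Ghir_D08G025240) and -0.14 (Ghir_D12G012660), and in 4847 to -0.30 (Ghir_A01G017450), -0.025 (Ghir_A13G019340), -0.22 (Ghir_D07G002740) and -0.088 (Ghir_D08G025240). At 24 h they turned in 9001 to -0.062 (Ghir_A01G017450), -0.15 (Ghir_A05G021610 and Ghir_A07G010450), -0.24 (Ghir_A08G015480), -0.255 (Ghir_A08G020580), -0.18 (Ghir_D07G002740) and -0.013 (Ghir_D08G025240), and in 4847 to -0.040 (Ghir_A02G001570), -0.21 (Ghir_A05G021610), -0.0060 (Ghir_A07G010450), -0.14 (Ghir_A08G020580 and Ghir_A13G019340), -0.061 (Ghir_D03G011380) and -0.090 (Ghir_D08G025240). In 9001 at 24 h, RLE factors gave -0.040 for Ghir_A08G015480 and -0.060 for Ghir_A08G020580, and upper-quartile factors -0.0051 for Ghir_A05G021610, -0.0033 for Ghir_A07G010450, -0.088 for Ghir_A08G015480, -0.11 for Ghir_A08G020580 and -0.036 for Ghir_D07G002740. Leaving out 1 replicate there gave -0.0014 to 0.064 for Ghir_A08G015480, -0.0014 to 0.19 for Ghir_A05G021610 and -0.062 to 0.064 for Ghir_A08G020580. Depth limits members near 20 CPM most in waterlogged 4847 at 24 h.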
